A study of Homo sapiens with 24 samples.

Results

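The 37 genes described here encode lysosomal membrane proteins, lysosomal hydrolases, subunits of the proton pump that acidifies the lysosome, and the factors that control these genes. The rule that chose them is a list of names with no threshold on a measured value, and each of the 37 was found under 1 identifier among the 57500 gene identifiers counted. By role they are 3 lysosomal membrane proteins, 7 proteases, 6 glycosidases or sulfamidases, 4 lipid-handling proteins, 4 genes of the calcium channel and transcriptional control group, 5 subunits of the membrane-embedded V0 sector of the pump, 6 subunits of its cytosolic V1 sector and 2 accessory subunits.

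H2052 is an established cell line from a human pleural mesothelioma. In each of 2 assays and at each of 2 times, 3 libraries came from cells given a miR-497-5p mimic and 3 from cells given a scrambled, non-targeting control mimic, 24 libraries in all. Both mimics carried biotin at the 3′ end (Dharmacon), were used at 20 nM with Lipofectamine RNAiMAX, and were left for 12 h or 72 h. The titles of the treated libraries write the mimic as miR-497-5p-RE, with no key to the suffix in the sources used here. The RNA-seq libraries are the input, and the pull-down libraries hold the poly(A) RNA recovered on streptavidin beads from cytoplasmic extract. All groups share the lipid reagent, the biotin tag and the dose, and no untransfected cells were analysed here. The work used 1 cell line, so nothing below separates the mimic's effect from features of this line.

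Lysosomes degrade protein, glycan and lipid with hydrolases that work in acid, and the V-ATPase supplies that acid by pumping protons through its V0 sector with ATP split by its V1 sector. Many of these genes are known targets of TFEB and TFE3, factors that bind the CLEAR element in promoters and are kept in the cytosol by mTORC1 when nutrients are plentiful. MicroRNAs repress transcripts mainly through matches in the 3′ UTR to their seed, bases 2 to 8 from the 5′ end.

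The mature sequences of miR-497-5p and of family members with the same seed are shown because the seed defines which members of the list could be direct targets. They are RefSeq sequences for GRCh38.p14, 5′ to 3′, with the seed in capitals. miR-497-5p lies at chr17:7017979-7017999 and miR-195-5p at chr17:7017667-7017687, both on the minus strand, and miR-15a-5p lies at chr13:50049167-50049188 on the minus strand.
hsa-miR-497-5p: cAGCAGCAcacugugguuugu
hsa-miR-195-5p: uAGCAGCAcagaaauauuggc
hsa-miR-15a-5p: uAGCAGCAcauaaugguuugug

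A match to the whole seed in a 3′ UTR reads TGCTGCT, or TGCTGCTA with an A after it. The longest GENCODE 44 3′ UTR of each gene on GRCh38 was searched, on the sense strand only. There 12 of the 37 members (32.4%) held at least 1 such match, against 4378 of 19042 protein-coding genes (23.0%). With 6-base matches (GCTGCT) included, the shares were 15 of 37 members (40.5%) and 42.7% of genes. The 12 were LAMP1, LAMP2, CTSC, CTSZ, GAA, HEXA, NPC1, NPC2, ATP6V0A1, ATP6V0B, ATP6V1B2 and ATP6V1C1. Windows of at most 30 bases around matches in 5 of them are printed, 5′ to 3′ along the transcript, with the match in capitals, because their transcripts moved in different directions below. The coordinates are those of the match: LAMP1 at chr13:113322831-113322837 (plus strand), LAMP2 at chrX:120426289-120426296 (minus), HEXA at chr15:72343489-72343495 (minus), NPC2 at chr14:74480200-74480206 (minus) and ATP6V0B at chr1:43978193-43978199 (plus). All 5 lie in the 3′ UTR, and the LAMP2 match lies outside the exons whose reads were counted. The matches of CTSZ, not printed, also lie outside its counted exons, in a 3′ UTR of 9963 bases.
LAMP1: gggggtgggggTGCTGCTctctccgagggg
LAMP2: gaactgatgctTGCTGCTAactaaagtttt
HEXA: tttgggtttctTGCTGCTtcaattttatac
NPC2: acctccagctcTGCTGCTtcaacaacagtg
ATP6V0B: ggggagcaggcTGCTGCTgctgactctgtg

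Total counts per library ran from 21561816 to 30602007 in RNA-seq and from 8262425 to 30650982 in the pull-down, where replicate 2 of miR-497-5p at 72 h was the shallowest. Levels below are CPM (counts scaled to library size), with TMM factors within each assay, so levels of the 2 assays stand side by side but were not scaled to each other. Of 10 mesothelial markers all 10 had counts in each group, with MSLN at 49.2 to 75.3 CPM in RNA-seq, while CALB2 (0.716 to 1.94 CPM) and UPK3B (0.0806 to 0.688 CPM) were low. Markers of stratified squamous epithelium were present in the 12 h RNA-seq libraries: the 16 genes summed to 874.6, 31.0 and 75.6 CPM in miR-497-5p replicates 1, 2 and 3, against 582.3, 621.8 and 206.1 CPM in control replicates 1, 2 and 3. Of the 16, SBSN (8.47 to 23.3 CPM) and IVL (2.25 to 7.73 CPM) had counts in every RNA-seq library of both times. In the pull-down at 12 h they summed to 771, 495.3 and 59.4 CPM in miR-497-5p replicates 1, 2 and 3 and to 43.9, 172.5 and 595.4 CPM in control replicates 1, 2 and 3. In RNA-seq at 72 h they summed to 20.8 to 24.6 CPM in miR-497-5p libraries (9 of 16 at 0, KRT14 and SPRR3 among them) and to 13.0 to 14.4 CPM in control libraries (8 of 16 at 0). In RNA-seq the 3 erythroid markers reached 442.7 CPM in miR-497-5p replicate 2 and 524.3 and 428.2 CPM in control replicates 1 and 2 at 12 h, against at most 0.265 CPM in miR-497-5p libraries and 0.499 CPM in control libraries at 72 h. The 7 macrophage markers, genes of a cell type rich in lysosomes, summed to at most 13.9 CPM in any library. The source of the squamous and erythroid transcripts was not examined. Their part in the 12 h results was not tested, and calls at 12 h that were lost when 1 library was left out are named below.

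Before either comparison, the members differed widely in level. In control cells at 12 h, scaled for exon length as well as depth (RPKM, n = 3), the cysteine protease CTSZ stood highest at 352.5 ± 6.94 RPKM (SD), followed by the tetraspanin CD63 at 279.1 ± 4.0 RPKM and the V0 subunit ATP6V0E1 at 185.1 ± 0.881 RPKM. The saposin precursor PSAP (134.8 ± 1.84 RPKM) and the protease CTSB (133.2 ± 1.69 RPKM) came next and lay within 1 SD of each other. The lowest were ASAH1, acid ceramidase (1.9 ± 0.0364 RPKM), the V0 subunit ATP6V0A1 and the transcription factor TFEB (0.481 ± 0.0254 RPKM). The related factor TFE3 stood at 29.3 ± 1.6 RPKM, far above TFEB. ATP6V1A and ATP6V0C, the pump subunits that changed most at 72 h, began at 3.26 ± 0.021 and 87.6 ± 3.8 RPKM.

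At 12 h the members barely differed between mimics in RNA-seq. By edgeR's quasi-likelihood test at an adjusted p under 0.05, 5 members were higher with miR-497-5p, where 7.25% of the 17335 genes tested were higher, and 1 was lower, where 5.3% of genes were lower. The members' median log2 fold change was 0.08 (range −0.16 to 0.21), beside 0.01 over all genes, and 13 of 37 had an unadjusted p under 0.05, as had 24.2% of all genes. The miR-497-5p libraries lay wholly above the control libraries for 9 members and wholly below for 0. Over all genes tested, 13.8% lay wholly above and 11.9% wholly below. The summed level of the 37 genes was 5812.2 to 6126.0 CPM in miR-497-5p cells and 5638.8 to 5746.5 CPM in control cells, so the miR-497-5p libraries lay above the control libraries without overlap. In RNA from whole cultures, fewer cells of a kind and less RNA per cell cannot be told apart.

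The tetraspanin CD63, carried on lysosomal and late endosomal membranes, had 813.0, 782.9 and 820.3 CPM in miR-497-5p cells and 734.7, 724.5 and 745.5 CPM in control cells at 12 h. Every miR-497-5p library lay above every control library, and the log2 fold change was 0.13 ± 0.03 (SE, adjusted p = 0.00138). ATP6V0B, a proteolipid of the V0 ring that holds overlapping seed matches, had 131.9, 117.9 and 127.2 CPM in miR-497-5p cells and 111.8, 109.2 and 111.1 CPM in control cells. It was higher with the mimic that matches it, at a log2 fold change of 0.18 ± 0.04 (adjusted p = 0.00264).

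NPC2, which hands cholesterol from the lysosomal lumen to NPC1, had 67.3, 62.0 and 61.3 CPM in miR-497-5p cells and 57.7, 56.9 and 57.3 CPM in control cells at 12 h (log2 fold change 0.15 ± 0.04, adjusted p = 0.0148). ATP6V0D1, which joins the V0 and V1 sectors, had 86.9, 82.1 and 83.8 CPM in miR-497-5p cells and 73.3, 76.2 and 77.2 CPM in control cells (0.16 ± 0.05, adjusted p = 0.0299). ATP6V1E1, a stalk subunit of V1, had 88.1, 85.1 and 90.7 CPM in miR-497-5p cells and 82.4, 77.0 and 80.4 CPM in control cells (0.14 ± 0.05, adjusted p = 0.0348). In all 3 genes the miR-497-5p libraries stood above the control libraries. Their calls were lost under scaling by library totals (adjusted p of 0.117, 0.143 and 0.196) and without the filter on low counts (0.0525, 0.0724 and 0.118). Leaving out control replicate 2 (adjusted p = 0.0613) and, separately, replicate 1 of miR-497-5p (0.0995) also ended the NPC2 call. ATP6V0D1 lost it without control replicate 1 (0.124) or 2 (0.0665) and without miR-497-5p replicate 1 (0.0636) or 3 (0.0671), and ATP6V1E1 without control replicate 2 (0.198) or 3 (0.0734) and without miR-497-5p replicate 3 (0.165).

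LAMP2, a membrane glycoprotein of the lysosome with an 8-base seed match, was the 1 member called lower at 12 h. It had 55.5, 55.6 and 60.6 CPM in miR-497-5p cells and 60.4, 64.3 and 67.0 CPM in control cells, groups that overlapped at 1 library (log2 fold change −0.16 ± 0.06, adjusted p = 0.0468). The call was lost without control replicate 2 (adjusted p = 0.124) or 3 (0.243) and without miR-497-5p replicate 1 (0.0909) or 2 (0.142). The count of members higher moved to 2 without control replicate 2, to 9 without miR-497-5p replicate 2 and to 3 without miR-497-5p replicate 3. Of the miR-497-5p libraries at 12 h in RNA-seq, replicate 2 had the fewest squamous transcripts (31.0 CPM) and the most erythroid ones (442.7 CPM). Under scaling by library totals the count of members higher was 2, with the 1 lower call kept.

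No call was made at 12 h for the marker LAMP1 (338.9, 302.2 and 318.2 CPM in miR-497-5p cells, 305.5, 304.7 and 314.4 CPM in control cells, log2 fold change 0.05 ± 0.04, adjusted p = 0.405). The same held for the aspartic protease CTSD (110.0, 88.6 and 93.5 CPM in miR-497-5p cells, 90.3, 96.3 and 89.0 CPM in control cells, 0.08 ± 0.06, adjusted p = 0.425). In both genes the groups overlapped. Of the exon bases of CTSD 52.7% are shared with 2 other gene models, whose counts were 0.17% and 0.29% of its own. How reads in shared bases were assigned is not stated, which holds for all CTSD values below. The calcium channel MCOLN1 had 22.4, 19.2 and 24.0 CPM in miR-497-5p cells and 21.1, 19.2 and 20.6 CPM in control cells (0.10 ± 0.08, adjusted p = 0.451).

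Neither transcription factor was called at 12 h. TFEB had 3.34, 3.21 and 2.84 CPM in miR-497-5p cells and 2.55, 2.81 and 2.79 CPM in control cells (0.20 ± 0.19, adjusted p = 0.582), and TFE3 had 140.2, 126.9 and 127.3 CPM in miR-497-5p cells and 123.4, 132.9 and 119.6 CPM in control cells (0.07 ± 0.04, adjusted p = 0.317). TFEB did not overlap between groups, at about 3 CPM, and TFE3 did. SQSTM1, the autophagy receptor p62, had 356.6, 312.2 and 317.4 CPM in miR-497-5p cells and 298.1, 316.5 and 309.0 CPM in control cells (0.09 ± 0.04, adjusted p = 0.147).

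At 72 h most members differed between mimics, in both directions. In RNA-seq 15 members were higher with miR-497-5p and 13 lower, with log2 fold changes from −0.90 for ATP6V0C to 1.21 for ATP6V1A and a median of −0.01 (0 over all genes). Of all genes tested 27.9% were higher and 29.6% lower, so a call in either direction was common in the whole transcriptome as well. These shares also stand beside the counts by role below. The miR-497-5p libraries lay wholly above the control libraries for 14 members and wholly below for 13, and overlapped for 10, while over all genes tested 31.6% lay wholly above and 32.2% wholly below. Summed over the 37 genes, the level was 3833.1 to 3943.5 CPM in miR-497-5p cells and 4033.3 to 4052.7 CPM in control cells. Scaling by library totals moved the median of all genes by −0.11 and the members' calls to 13 higher and 15 lower.

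**Figure D1:**
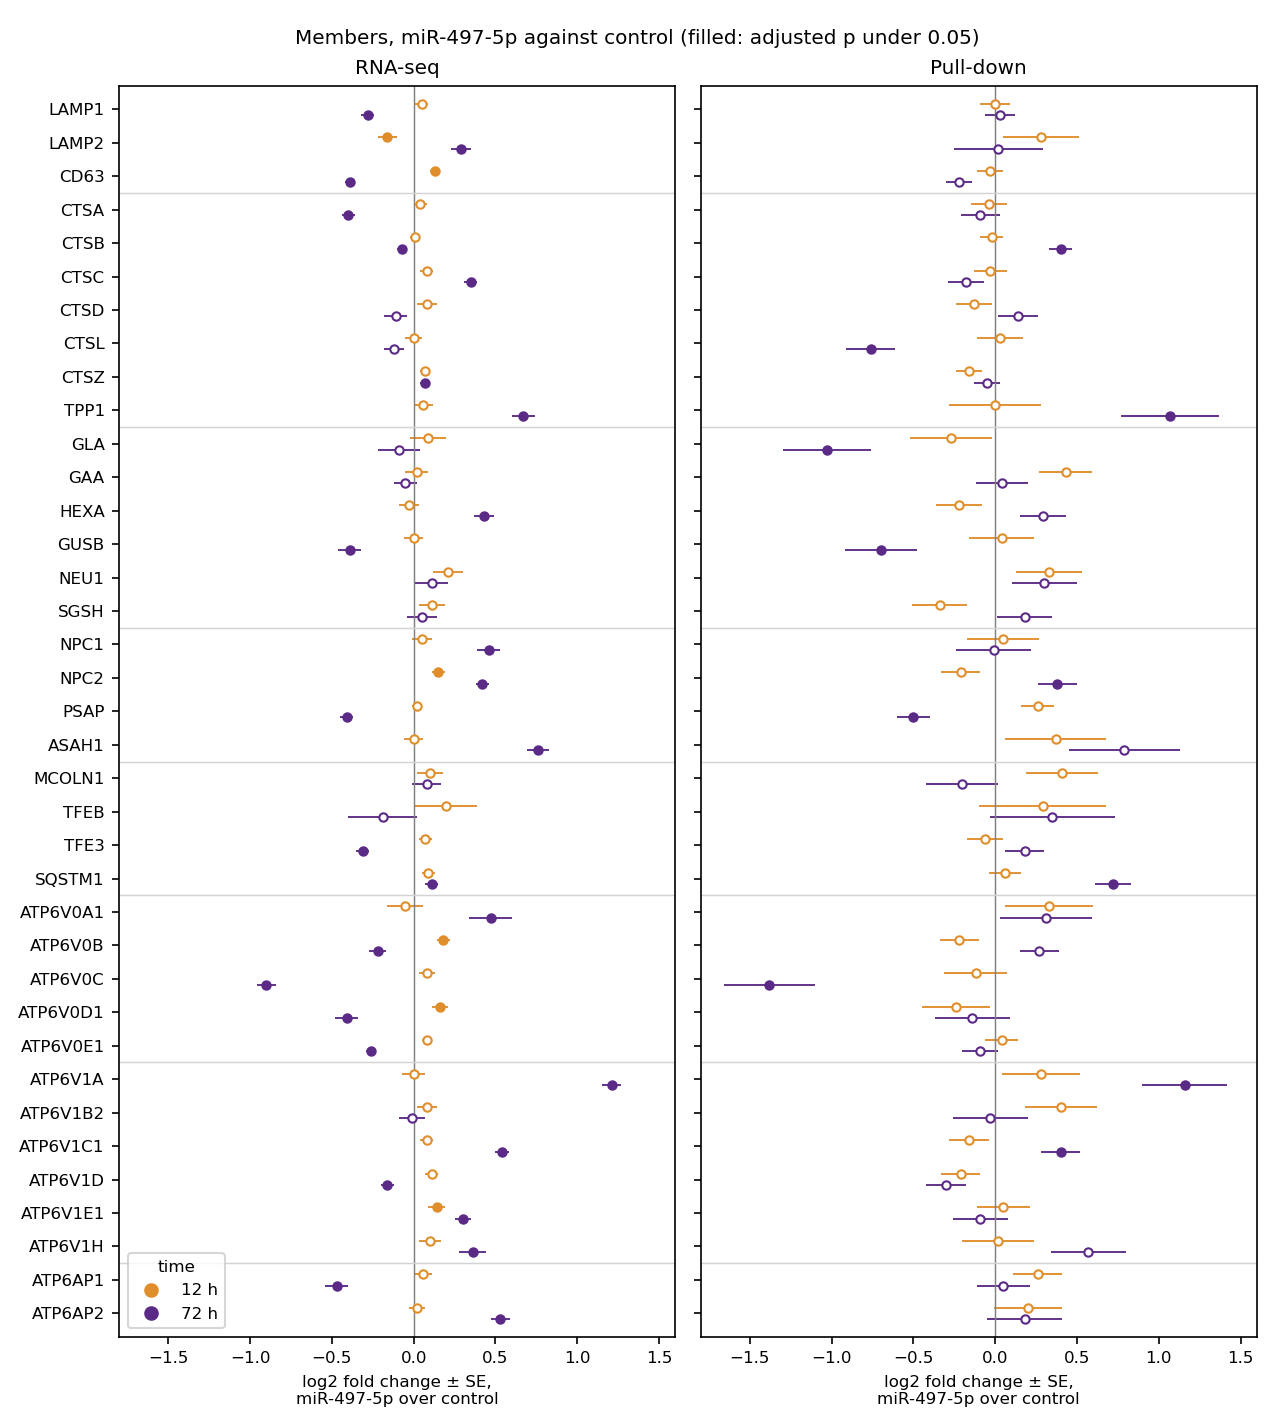
Log2 fold change (miR-497-5p over control) with its standard error for each of the 37 members, grouped by role, in RNA-seq (left) and pull-down (right), at 12 h (orange) and 72 h (purple), with filled points for an adjusted p under 0.05. The 12 h points in RNA-seq sit between −0.16 and 0.21, while at 72 h they run from −0.90 (ATP6V0C) to 1.21 (ATP6V1A) and in the pull-down from −1.38 (ATP6V0C) to 1.16 (ATP6V1A).

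Among the 3 lysosomal membrane proteins, CD63 and LAMP1 fell and LAMP2 rose at 72 h. CD63 had 486.4, 478.5 and 471.5 CPM in miR-497-5p cells and 624.8, 611.3 and 643.4 CPM in control cells (log2 fold change −0.39 ± 0.03, adjusted p = 1.84e-15). LAMP1, which carries a seed match, had 87.7, 88.4 and 87.2 CPM in miR-497-5p cells and 104.6, 109.9 and 105.6 CPM in control cells (−0.28 ± 0.04, adjusted p = 3.77e-08). LAMP2 had 29.5, 31.3 and 30.8 CPM in miR-497-5p cells and 25.8, 26.1 and 22.9 CPM in control cells (0.29 ± 0.06, adjusted p = 9.51e-05). In none of the 3 did the groups overlap, and their summed level was 589.5 to 603.6 CPM in miR-497-5p cells and 747.3 to 771.9 CPM in control cells. With the GC offset CD63 kept its call, while LAMP1 (−0.01) and LAMP2 (0.00) did not.

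Of the 7 proteases, 3 rose and 2 fell at 72 h, where 27.9% of all genes were higher and 29.6% lower. TPP1, tripeptidyl peptidase, had 34.4, 34.9 and 36.9 CPM in miR-497-5p cells and 23.3, 22.2 and 21.3 CPM in control cells, a 1.59-fold rise (log2 0.67 ± 0.07, adjusted p = 2.15e-12). CTSA, which also protects neuraminidase and galactosidase in a complex, had 79.4, 73.0 and 73.8 CPM in miR-497-5p cells and 99.9, 99.5 and 100 CPM in control cells (−0.40 ± 0.04, adjusted p = 2.17e-11). CTSA shares exon bases with PLTP, NEURL2 and 1 more gene on the opposite strand (28.5% of its exon bases overlap), and without a stated strand setting their reads cannot be told apart. The CTSA call ended with the GC offset (−0.06, adjusted p = 0.174).

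CTSC, which activates serine proteases, rose (0.35 ± 0.04, adjusted p = 5.61e-10). CTSZ (0.07 ± 0.03, adjusted p = 0.0439) and CTSB (−0.07 ± 0.03, adjusted p = 0.0365) passed the test with small differences and lost the call without any of 4 single libraries for CTSZ and any of 5 for CTSB. CTSB turned to 0.15 with the GC offset and CTSZ to −0.04 under library totals. CTSD did not pass, with 38.4, 33.6 and 35.1 CPM in miR-497-5p cells and 38.6, 38.3 and 38.7 CPM in control cells (−0.11 ± 0.07, adjusted p = 0.17), nor did CTSL (−0.12 ± 0.06, adjusted p = 0.0862). CTSD was called lower under scaling by library totals (−0.22, adjusted p = 0.00259) and higher with the GC offset (0.34, adjusted p = 1.17e-08). CTSL was called lower under library totals (−0.22, adjusted p = 0.00113), without the filter (−0.14, adjusted p = 0.0459), with the GC offset (−0.16, adjusted p = 0.00628) and without miR-497-5p replicate 3 (−0.18, adjusted p = 0.0182).

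Among the 6 glycosidases or sulfamidases, HEXA rose and GUSB fell at 72 h. HEXA, a subunit of the hexosaminidase that clears GM2 ganglioside, had 32.3, 32.1 and 31.5 CPM in miR-497-5p cells and 25.0, 21.6 and 24.5 CPM in control cells (0.43 ± 0.06, adjusted p = 6.91e-08). Of the HEXA exon bases 16.3% are shared with 3 other gene models. The glucuronidase GUSB had 12.1, 12.4 and 12.7 CPM in miR-497-5p cells and 15.7, 15.9 and 17.2 CPM in control cells (−0.39 ± 0.07, adjusted p = 1.36e-05). GUSB has 21 annotated pseudogenes that could take part of its reads, and its call ended with the GC offset (−0.10, adjusted p = 0.239). The acid alpha-glucosidase GAA (−0.05 ± 0.07), the alpha-galactosidase GLA (−0.09 ± 0.13), the sialidase NEU1 (0.11 ± 0.10) and the heparan sulfamidase SGSH (0.05 ± 0.09) did not pass. With the GC offset GAA (0.41, adjusted p = 1.52e-06), SGSH (0.48, adjusted p = 6.59e-06) and NEU1 (0.25, adjusted p = 0.036) were called higher, and NEU1 was also called without control replicate 2 (0.25, adjusted p = 0.0363).

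All 4 lipid-handling genes passed the test at 72 h, 3 of them upward, where 27.9% of all genes were higher and 29.6% lower. Acid ceramidase, ASAH1, had 26.8, 26.8 and 26.5 CPM in miR-497-5p cells and 14.8, 15.9 and 16.6 CPM in control cells, a 1.69-fold rise (log2 0.76 ± 0.07, adjusted p = 2.79e-13). NPC2 had 183.1, 183.5 and 183.7 CPM in miR-497-5p cells and 139.6, 140.1 and 132.8 CPM in control cells (0.42 ± 0.04, adjusted p = 1.6e-12). NPC1, the membrane protein of the same cholesterol export route, had 32.5, 32.4 and 29.6 CPM in miR-497-5p cells and 22.3, 22.5 and 23.8 CPM in control cells (0.46 ± 0.07, adjusted p = 5.31e-08). Both NPC genes hold seed matches. PSAP, whose saposins present lipids to hydrolases, went the other way, with 101.8, 98.9 and 93.4 CPM in miR-497-5p cells and 130.8, 132.0 and 128.0 CPM in control cells (−0.41 ± 0.04, adjusted p = 1.38e-13).

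Of the 4 channel and control genes, TFE3 fell and SQSTM1 rose slightly at 72 h. TFE3 had 140.4, 144.8 and 141.0 CPM in miR-497-5p cells and 178.8, 174.0 and 177.1 CPM in control cells (−0.31 ± 0.04, adjusted p = 6.92e-09), though its value was 0.07 (adjusted p = 0.0718) with the GC offset. TFEB had 3.02, 2.33 and 1.79 CPM in miR-497-5p cells and 2.46, 3.46 and 2.16 CPM in control cells (−0.19 ± 0.21, adjusted p = 0.456), and MCOLN1 had 11.6, 10.5 and 10.6 CPM in miR-497-5p cells and 9.64, 10.8 and 10.4 CPM in control cells (0.08 ± 0.09, adjusted p = 0.459), both with overlapping groups. With the GC offset MCOLN1 was called higher (0.51, adjusted p = 2.17e-06). SQSTM1 had 148.9, 146.0 and 138.9 CPM in miR-497-5p cells and 133.9, 140.2 and 128.5 CPM in control cells (0.11 ± 0.04, adjusted p = 0.0357), also overlapping. Its call was lost without control replicate 1 (adjusted p = 0.0888) or 3 (0.209), without miR-497-5p replicate 1 (0.106) or 2 (0.073), and under scaling by library totals (log2 0.00).

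Of the 5 V0 subunits of the proton pump 4 fell and 1 rose at 72 h, and of the 6 V1 subunits 4 rose and 1 fell, where 27.9% of all genes were higher and 29.6% lower. The sectors were not tested against each other. The V0 genes summed to 307.5 to 320.1 CPM in miR-497-5p cells and 392.5 to 395.9 CPM in control cells, while the V1 genes summed to 295.0 to 304.5 CPM in miR-497-5p cells and 233.2 to 238.0 CPM in control cells, without overlap in either sector. The medians of the log2 fold changes were −0.26 for V0 and 0.33 for V1. These counts per sector were the same with DESeq2, library totals, no filter, the replicate block and a fit of the compared libraries alone. With an offset for GC content V0 had 2 higher and 2 lower, and V1 kept 4 higher and 1 lower.

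ATP6V0C (chr16:2513870-2520218, plus strand, GRCh38), the proteolipid that forms most of the proton-carrying ring, fell most. It had 37.4, 30.3 and 35.1 CPM in miR-497-5p cells and 62.7, 66.9 and 62.4 CPM in control cells, so every miR-497-5p library lay below every control library. The fold was 0.536 (log2 −0.90 ± 0.06, adjusted p = 1.13e-15), and −0.44 on the log2 scale with the GC offset. Of its exon bases 72.1% are shared with 2 same-strand gene models that have close to no counts, and 4 pseudogenes are annotated. It holds no seed match.

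ATP6V1A (chr3:113747019-113812056, plus strand, GRCh38), the catalytic subunit that splits ATP, rose most. It had 47.2, 47.8 and 45.4 CPM in miR-497-5p cells and 21.0, 20.2 and 19.4 CPM in control cells, a 2.32-fold difference (log2 1.21 ± 0.06, adjusted p = 2.54e-21) with the groups far apart. Over every alternative fit its log2 fold change ran from 0.97 to 1.24. ATP6V1C1, a stalk subunit with seed matches, had 96.5, 101.0 and 105.0 CPM in miR-497-5p cells and 70.0, 71.2 and 66.7 CPM in control cells (0.54 ± 0.04, adjusted p = 5.54e-15). ATP6V0E1, a small V0 subunit, had 198.2, 198.3 and 194.9 CPM in miR-497-5p cells and 236.1, 236.6 and 237.2 CPM in control cells (−0.26 ± 0.03, adjusted p = 4.77e-09).

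In the rest of the pump the V0 subunits ATP6V0D1 (−0.41 ± 0.07, adjusted p = 7.75e-07) and ATP6V0B (−0.22 ± 0.05, adjusted p = 0.000103) fell, and ATP6V0A1, which lines the proton path beside the ring, rose at a low level (5.73, 6.40 and 5.17 CPM in miR-497-5p cells, 3.35, 4.23 and 4.91 CPM in control cells, 0.47 ± 0.13, adjusted p = 0.00242). In V1, ATP6V1H (0.36 ± 0.08, adjusted p = 0.000118) and ATP6V1E1 (0.30 ± 0.05, adjusted p = 1.57e-06) rose and ATP6V1D, the central rotor shaft, fell (−0.16 ± 0.04, adjusted p = 0.00157). The other catalytic-ring subunit, ATP6V1B2, stayed at 10.1, 11.2 and 10.2 CPM in miR-497-5p cells and 10.0, 10.9 and 10.7 CPM in control cells (−0.01 ± 0.08, adjusted p = 0.948), and it holds 3 seed matches. The accessory subunits parted too: ATP6AP2, the prorenin receptor, had 36.4, 35.0 and 38.7 CPM in miR-497-5p cells and 26.8, 24.7 and 25.0 CPM in control cells (0.53 ± 0.06), and ATP6AP1 had 18.5, 16.2 and 17.7 CPM in miR-497-5p cells and 25.1, 23.8 and 23.5 CPM in control cells (−0.47 ± 0.07). With the GC offset ATP6V0B turned to 0.14 (adjusted p = 0.00217), and ATP6V0D1 (−0.09, adjusted p = 0.226) and ATP6AP1 (−0.08, adjusted p = 0.281) were no longer called.

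**Figure D2:**
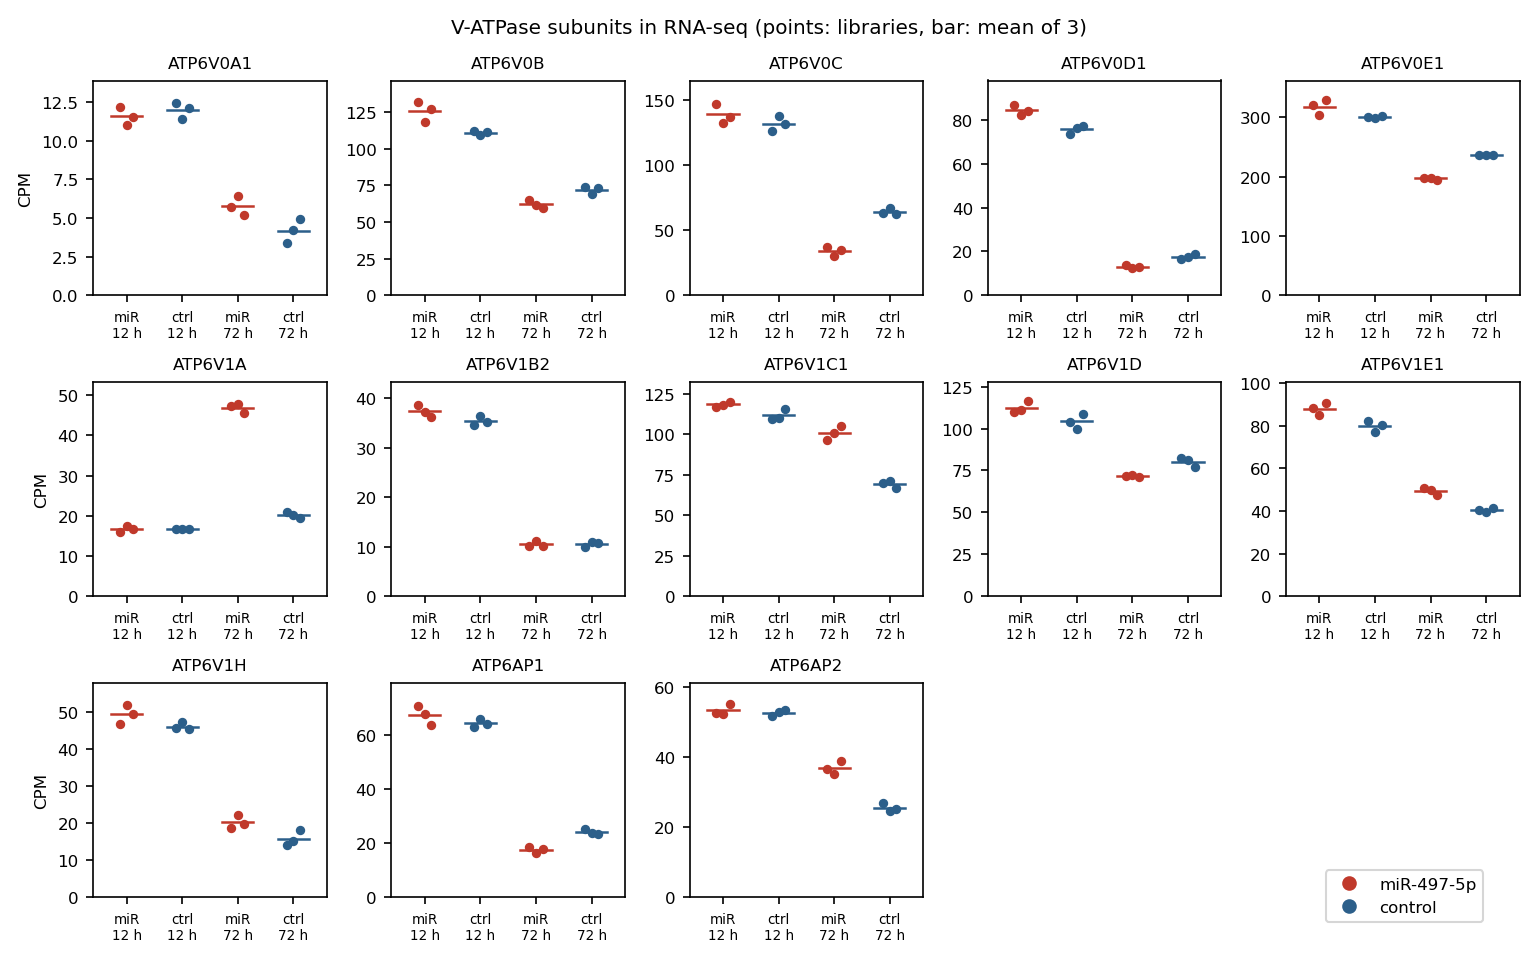
RNA-seq level (CPM) of the 13 V-ATPase genes in each library, 1 panel per gene, at 12 h and 72 h, with miR-497-5p libraries left of control libraries. At 72 h ATP6V1A stands at 45.4 to 47.8 CPM with miR-497-5p and 19.4 to 21.0 CPM with control, and ATP6V0C at 30.3 to 37.4 CPM with miR-497-5p and 62.4 to 66.9 CPM with control, while at 12 h both overlap.

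The mimic effect in RNA-seq differed between the times for 25 of the 37 members by the test of the difference itself, 13 upward and 12 downward, where 22.5% of genes were upward and 26.2% downward. ATP6V1A had the largest upward difference (effect at 72 h minus effect at 12 h 1.22 ± 0.09, adjusted p = 1.88e-15). At 12 h it had 15.9, 17.4 and 16.7 CPM in miR-497-5p cells and 16.8, 16.8 and 16.6 CPM in control cells. ATP6V0C had the largest downward one (−0.98 ± 0.08, adjusted p = 3.91e-13), and its groups overlapped at 12 h (146.6, 132.4 and 137.0 CPM in miR-497-5p cells, 125.8, 137.2 and 130.9 CPM in control cells). CD63 and ATP6V0B, called higher at 12 h, were called lower at 72 h, and LAMP2 was called lower at 12 h and higher at 72 h. Their differences between times were −0.52 ± 0.04, −0.40 ± 0.06 and 0.45 ± 0.08, and with the GC offset those of ATP6V0B (−0.03) and LAMP2 (0.12) did not pass. Scaling by library totals gave 11 upward and 14 downward calls.

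The calls were also counted by seed match. At 72 h in RNA-seq, of the 12 members with a match 8 were higher and 2 lower (median log2 fold change 0.32), and of the 25 without one 7 were higher and 11 lower (median −0.11). LAMP2 and CTSZ, whose matches lie outside the counted exons, were among the 8. Over all genes with a match 29% were higher and 36.0% lower, and without one 29.7% were higher and 33.4% lower. At 12 h, 2 of the 12 members with a match were higher and 1 lower, while over all genes with a match 4.0% were higher and 13.9% lower, and without one 9.87% were higher and 3.77% lower. At 72 h the members with a match had a median of 0.32 and all genes with a match one of −0.05, a description, since the members were not tested against them.

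The members that rose at 72 h had transcripts of lower GC content. The median was 46.5% (38.5 to 61.5) in the 15 higher members, 55.8% (43.2 to 64.8) in the 13 lower and 62.0% in the 9 uncalled. Across the 37 members, log2 fold change and GC content had a Spearman rho of −0.59, and across 13976 genes with a GC value of −0.44. With 3′ UTR length the rho was 0.57 across members and 0.20 across genes. Genes share libraries and are not independent replicates, so these values carry no p. With an offset for GC content, added after seeing the data, the count was 21 members higher and 6 lower. Under that offset 8422 of the 13976 genes were called, 51.6% of them higher. The median log2 fold change was then 0.19 for the members and 0.02 over all genes. The part of GC content in the members' changes was not otherwise tested.

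**Figure D3:**
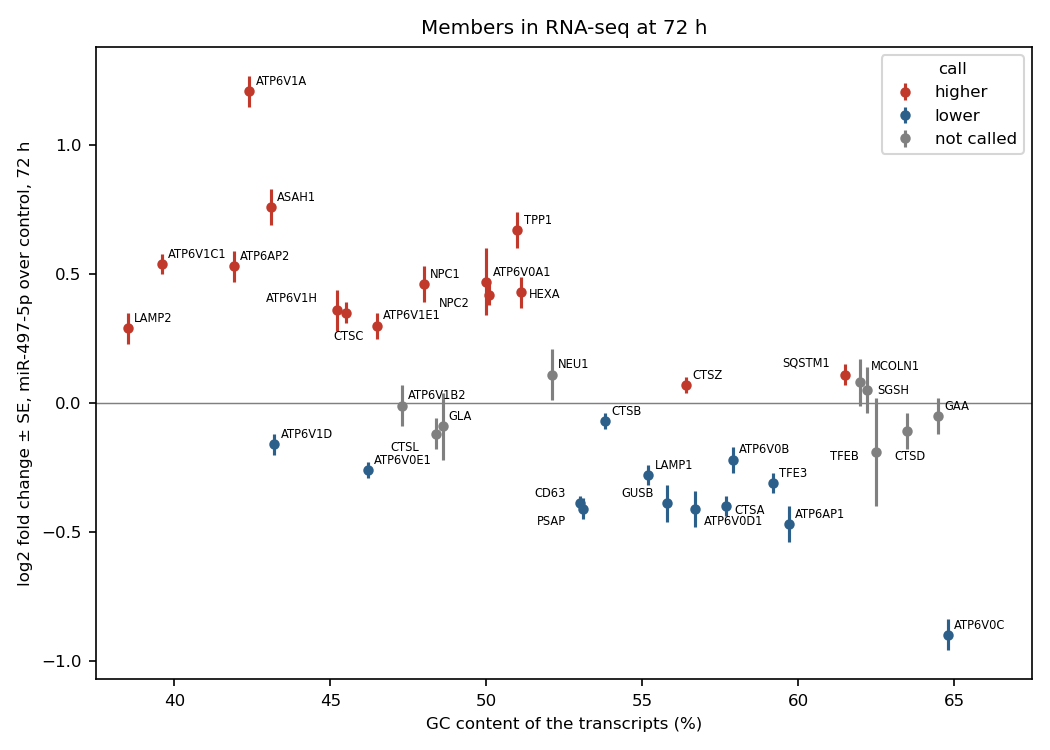
GC content of each member's transcripts (%) against its log2 fold change at 72 h in RNA-seq (miR-497-5p over control) with the standard error, coloured by call. The 15 higher members have a median GC content of 46.5%, the 13 lower members 55.8%, and the extremes of fold change are ATP6V1A, at 42.4% GC, and ATP6V0C, at 64.8% GC.

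In the pull-down at 12 h no member passed the test in either direction, where 0.326% of the 17477 genes tested were higher and 0.269% lower. By edgeR 2 members had an unadjusted p under 0.05, as had 10.1% of all genes: the glucosidase GAA (36.8, 32.2 and 43.2 CPM in miR-497-5p cells, 28.6, 27.6 and 27.2 CPM in control cells, log2 0.43 ± 0.16, adjusted p = 0.295) and PSAP (260.4, 300.1 and 278.1 CPM in miR-497-5p cells, 244.5, 228.0 and 227.1 CPM in control cells, 0.26 ± 0.10, adjusted p = 0.333). DESeq2 also called 0. The miR-497-5p libraries lay above the control libraries for 7 members and below for 7, and overlapped for 23, while over all genes tested 8.11% lay above and 8.33% below. The median log2 fold change was 0.02, beside −0.01 over all genes. The biological coefficient of variation was 0.349 in the pull-down and 0.06 in RNA-seq.

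The always-reported members were uncalled on the beads at 12 h. LAMP1 had 244.8, 224.0 and 217.5 CPM with miR-497-5p and 236.7, 231.5 and 220.4 CPM with control (0.00 ± 0.09, adjusted p = 0.998). CTSD had 124.0, 116.2 and 133.9 CPM with miR-497-5p and 125.2, 126.8 and 156.8 CPM with control (−0.13 ± 0.11, adjusted p = 0.826), and MCOLN1 had 18.1, 24.0 and 35.5 CPM with miR-497-5p and 19.3, 16.8 and 22.6 CPM with control (0.41 ± 0.22, adjusted p = 0.565). All of these groups overlapped.

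The control factors overlapped as well. TFEB had 5.04, 3.06 and 4.96 CPM with miR-497-5p and 3.20, 3.87 and 3.58 CPM with control (0.29 ± 0.39, adjusted p = 0.91), and TFE3 had 118.7, 108.9 and 119.6 CPM with miR-497-5p and 110.3, 114.5 and 138.2 CPM with control (−0.06 ± 0.11, adjusted p = 0.94). SQSTM1 had 137.9, 121.7 and 136.9 CPM with miR-497-5p and 138.5, 129.6 and 112.4 CPM with control (0.06 ± 0.10, adjusted p = 0.94).

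At 72 h the pull-down held 6 members higher and 5 lower with miR-497-5p, where 10.2% of genes were higher and 12.6% lower. The median log2 fold change of the 37 was 0.04, beside 0 over all genes. SQSTM1 had the smallest adjusted p, with 139.2, 125.3 and 119.0 CPM with miR-497-5p and 77.1, 78.1 and 78.1 CPM with control (0.72 ± 0.11, adjusted p = 1.34e-05). The protease CTSB had 1686.4, 1517.5 and 1683.6 CPM with miR-497-5p and 1233.5, 1216.9 and 1246.9 CPM with control (0.40 ± 0.07, adjusted p = 0.00019). In both genes the groups stood well apart. SQSTM1 shares 22.0% of its exon bases with MRNIP and MGAT4B on the opposite strand, NPC1 6.0% with RMC1 and ATP6V1D 6.3% with EIF2S1, and without a stated strand setting reads of these pairs cannot be told apart.

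ATP6V1A was higher on the beads too, with 7.45, 9.99 and 10.7 CPM with miR-497-5p and 4.59, 3.77 and 4.26 CPM with control (1.16 ± 0.26, adjusted p = 0.00152). TPP1 had 13.1, 17.0 and 10.4 CPM with miR-497-5p and 3.14, 7.69 and 8.27 CPM with control (1.07 ± 0.30, adjusted p = 0.00981). Without control replicate 1, the lowest, TPP1 missed the threshold (0.73, adjusted p = 0.0636), and likewise without miR-497-5p replicate 2 (0.87, adjusted p = 0.0613). ATP6V1C1 had 57.5, 62.9 and 61.1 CPM with miR-497-5p and 42.8, 48.9 and 45.4 CPM with control (0.40 ± 0.12, adjusted p = 0.0176), and NPC2 had 81.2, 85.6 and 95.2 CPM with miR-497-5p and 67.2, 65.9 and 68.1 CPM with control (0.38 ± 0.12, adjusted p = 0.0206). Neither overlapped, yet each was lost in 4 of the 6 fits without 1 library, with adjusted p up to 0.0918 without control replicate 1 for ATP6V1C1 and up to 0.12 without miR-497-5p replicate 3 for NPC2. Without control replicate 1 the count of higher members fell to 3.

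ATP6V0C was the lower member with the largest fold on the beads, with 1.32, 2.57 and 1.53 CPM with miR-497-5p (25, 19 and 27 reads) and 5.44, 2.68 and 4.99 CPM with control (109, 69 and 102 reads). The groups did not overlap, but miR-497-5p replicate 2 and control replicate 2 were close (−1.38 ± 0.28, adjusted p = 0.000614), and a fit of the 72 h libraries alone missed the threshold (−1.29, adjusted p = 0.0691). CTSL, a cysteine protease with 7 annotated pseudogenes, had 23.2, 21.1 and 21.6 CPM with miR-497-5p and 32.3, 42.3 and 36.9 CPM with control (−0.76 ± 0.15, adjusted p = 0.000413). PSAP had 137.7, 103.5 and 132.8 CPM with miR-497-5p and 179.2, 174.3 and 176.2 CPM with control (−0.50 ± 0.10, adjusted p = 0.000671).

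The galactosidase GLA had 4.02, 2.70 and 5.37 CPM with miR-497-5p and 8.88, 7.65 and 8.71 CPM with control (−1.03 ± 0.27, adjusted p = 0.00584). GUSB had 8.19, 6.62 and 10.2 CPM with miR-497-5p and 14.7, 16.5 and 9.89 CPM with control, overlapping at 1 library (−0.70 ± 0.22, adjusted p = 0.0199). Its call was lost in 4 of the 6 fits without 1 library, with an adjusted p up to 0.114 without control replicate 2. None of the 5 lower members holds a full seed match, and of the 6 higher members NPC2 and ATP6V1C1 do.

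**Figure D4:**
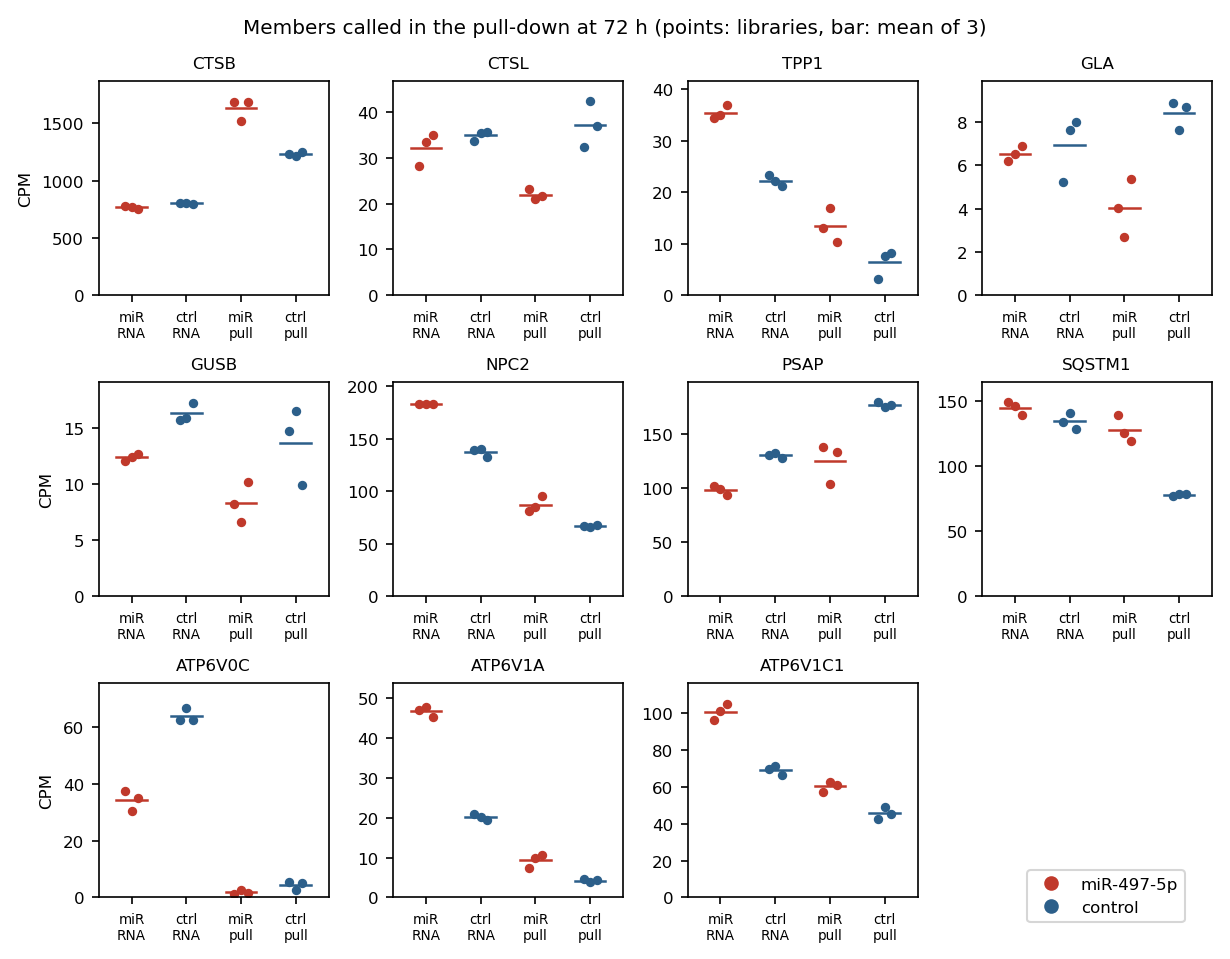
Level (CPM, scaled within each assay) at 72 h of the 11 members called in the pull-down, in RNA-seq and in the pull-down, with each library as a point and miR-497-5p left of control. ATP6V0C reaches 30.3 to 37.4 CPM in RNA-seq and 1.32 to 2.57 CPM on the beads with miR-497-5p, against 62.4 to 66.9 and 2.68 to 5.44 CPM with control, and CTSB stands higher on the beads with miR-497-5p (1517.5 to 1686.4 CPM) than with control (1216.9 to 1246.9 CPM).

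The other always-reported members were uncalled on the beads at 72 h. LAMP1 had 133.7, 126.9 and 129.9 CPM with miR-497-5p and 123.6, 129.6 and 129.3 CPM with control (0.03 ± 0.09, adjusted p = 0.877), and CTSD had 71.7, 59.5 and 62.8 CPM with miR-497-5p and 55.9, 60.4 and 59.9 CPM with control (0.14 ± 0.12, adjusted p = 0.444). MCOLN1 had 18.2, 13.1 and 16.0 CPM with miR-497-5p and 19.7, 17.2 and 17.8 CPM with control (−0.20 ± 0.22, adjusted p = 0.605). All 3 overlapped.

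TFEB had 8.14, 3.92 and 12.0 CPM with miR-497-5p and 6.49, 6.25 and 6.36 CPM with control at 72 h (0.35 ± 0.38, adjusted p = 0.593), a spread among the miR-497-5p libraries wider than any difference between groups. TFE3 had 45.5, 41.9 and 48.4 CPM with miR-497-5p and 41.4, 39.1 and 39.7 CPM with control (0.18 ± 0.12, adjusted p = 0.314), without overlap. With the GC offset TFE3 was called higher (0.42, adjusted p = 0.00817). On the beads that offset also called HEXA (0.40, adjusted p = 0.0415) and ATP6V0B (0.51, adjusted p = 0.00275) higher and ATP6V1D lower (−0.36, adjusted p = 0.0318). It ended the calls of GUSB (−0.50, adjusted p = 0.0854) and ATP6V1C1 (0.32, adjusted p = 0.055). ASAH1, a clear rise in RNA-seq, had 0.79 ± 0.34 on the beads (adjusted p = 0.101), but leaving out control replicate 2 gave a call at 1.42 (adjusted p = 0.00397), and leaving out replicate 3 of miR-497-5p gave one at 1.06 (adjusted p = 0.0402).

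On the beads the mimic effect differed between the times for 7 members, 4 upward, where 5.94% of genes were upward, and 3 downward, where 6.27% were. Upward were SQSTM1 (0.66 ± 0.15, adjusted p = 0.0037), CTSB (0.42 ± 0.10, adjusted p = 0.00747), NPC2 (0.60 ± 0.17, adjusted p = 0.0187) and ATP6V1C1 (0.56 ± 0.17, adjusted p = 0.0322). Downward were PSAP (−0.76 ± 0.14, adjusted p = 0.000678), CTSL (−0.79 ± 0.21, adjusted p = 0.0111) and ATP6V0C (−1.25 ± 0.34, adjusted p = 0.0157). Without miR-497-5p replicate 3 of 72 h the upward count was 2. The ATP6V1C1 call was lost under library totals (adjusted p = 0.0638), without the filter (0.103) and in 6 fits without 1 library, up to 0.0944 without control replicate 1 of 72 h. ATP6V0C lost its call without control replicate 1 (0.0531), miR-497-5p replicate 1 (0.0762) or miR-497-5p replicate 3 (0.0569) of 72 h, and NPC2 without control replicate 2 (0.0519) or miR-497-5p replicate 3 (0.0676) of 72 h.

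Set side by side at 72 h, ATP6V1A, ATP6V1C1, NPC2, SQSTM1 and TPP1 were called higher in both assays and ATP6V0C, GUSB and PSAP lower in both. CTSB was called lower in RNA-seq and higher on the beads. CTSL and GLA passed on the beads, and CTSL was called lower in RNA-seq only under the alternatives given above. In neither assay did 7 members pass (ATP6V1B2, CTSD, GAA, MCOLN1, NEU1, SGSH and TFEB). Several of these calls were lost without certain single libraries: those of SQSTM1 and CTSB in RNA-seq and those of NPC2, ATP6V1C1, GUSB and TPP1 on the beads. The CTSB call in RNA-seq was also lost with DESeq2 (−0.06, adjusted p = 0.0562). On the beads ATP6V0C and GUSB (−0.70, adjusted p = 0.0527) lost theirs in a fit of the 72 h libraries alone. That fit called CD63 lower (−0.21, adjusted p = 0.00192), as did library totals (adjusted p = 0.0417), and ATP6V0B higher (0.28, adjusted p = 0.0486). Without the filter on low counts NPC2 (0.36, adjusted p = 0.0596) and ATP6V1C1 (0.38, adjusted p = 0.0638) lost their calls on the beads. The mimic's effect on the beads was also set against its effect on the input in 1 fit. At 72 h the difference (beads minus input) was positive for 5 members, where 7.46% of genes were, and negative for 2, where 7.01% were.

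The positive members at 72 h were CTSB (0.45 ± 0.05, adjusted p = 7.58e-06), SQSTM1 (0.59 ± 0.09, adjusted p = 0.000158), TFE3 (0.48 ± 0.08, adjusted p = 0.000622), LAMP1 (0.29 ± 0.07, adjusted p = 0.00848) and ATP6V0B (0.47 ± 0.12, adjusted p = 0.0104). The negative members were CTSC (−0.55 ± 0.13, adjusted p = 0.00848) and CTSL (−0.66 ± 0.16, adjusted p = 0.0104). A full seed match is held by LAMP1 and ATP6V0B among the positive and by CTSC among the negative, and CTSB and SQSTM1 hold only 6-base matches. Scaling by library totals, which moved the median of all genes by 0.13, gave 10 positive and 1 negative, and without control replicate 2 of the pull-down 4 were negative.

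At 12 h no member passed the assay comparison by edgeR, where 0.984% of genes were positive and 0.357% negative. There 10 members had an unadjusted p under 0.05, a count without a share over all genes to set beside it. DESeq2 called 5 negative (CTSZ, NPC2, ATP6V0B, ATP6V0D1 and ATP6V1D), where it called 974 of 17078 genes, 40.2% of them positive. Library totals called LAMP2 positive (0.59, adjusted p = 0.0449), as did leaving out miR-497-5p replicate 1 of the pull-down (0.52, adjusted p = 0.0427).

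The members' levels on the beads did not simply follow the input. In control cells at 72 h the ratio of the mean pull-down CPM to the mean RNA-seq CPM ran from 0.0683 for ATP6V0C (4.37 ± 1.48 over 64.0 ± 2.5 CPM, SD) and 0.118 for LAMP2 (2.94 ± 0.749 over 24.9 ± 1.75 CPM) to 2.99 for SGSH, with a median of 0.928 over the 37. In miR-497-5p cells at 72 h it ran from 0.0525 for ATP6V0C to 3.37 for TFEB, with a median of 0.721. At 12 h ATP6V0C had ratios of 0.515 in miR-497-5p cells and 0.593 in control cells. ATP6V0C was thus among the weakly retained members at 72 h with either mimic, including the scrambled one. The assays were scaled apart and these ratios were not tested.

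Between the times, control cells had less of most members. At 72 h against 12 h in RNA-seq, 4 members were higher, where 36.1% of genes were, and 32 lower, where 38.4% were, with a median log2 fold change of −0.91 beside 0 over all genes. ATP6V0D1 (17.5 against 75.6 CPM in the means) and CTSC fell furthest, at −2.11 ± 0.06 (adjusted p = 4.82e-33) and −2.10 ± 0.04 (adjusted p = 6.59e-39). PSAP (−1.74 ± 0.04, adjusted p = 8.28e-38) and LAMP1 (−1.53 ± 0.04, adjusted p = 2.77e-34) followed among those with the smallest adjusted p. Time after transfection and any difference in collection between the times cannot be told apart. The squamous transcripts of the 12 h control libraries, 206.1 to 621.8 CPM in sum, moved with the same contrast and their part was not tested.

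The 4 that rose were NPC2 (1.26 ± 0.04, adjusted p = 1.37e-29), TFE3 (0.50 ± 0.04, adjusted p = 6.41e-15), ATP6V1A (0.27 ± 0.07, adjusted p = 0.000285) and CTSZ (0.20 ± 0.03, adjusted p = 1.2e-07), and TFEB did not pass (−0.01 ± 0.19, adjusted p = 0.966). By role the medians ran from −1.36 for lysosomal membrane proteins, −1.23 for accessory and −1.04 for V0 subunits to −0.36 for proteases. Scaling by library totals moved the median of all genes by −0.25 and left 2 members higher and 32 lower, with ATP6V1A at 0.03 (adjusted p = 0.745) and CTSZ at −0.05 (0.135), and the GC offset moved it by 0.19. Summed over the list, control cells had 4033.3 to 4052.7 CPM at 72 h and 5638.8 to 5746.5 CPM at 12 h.

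**Figure D5:**
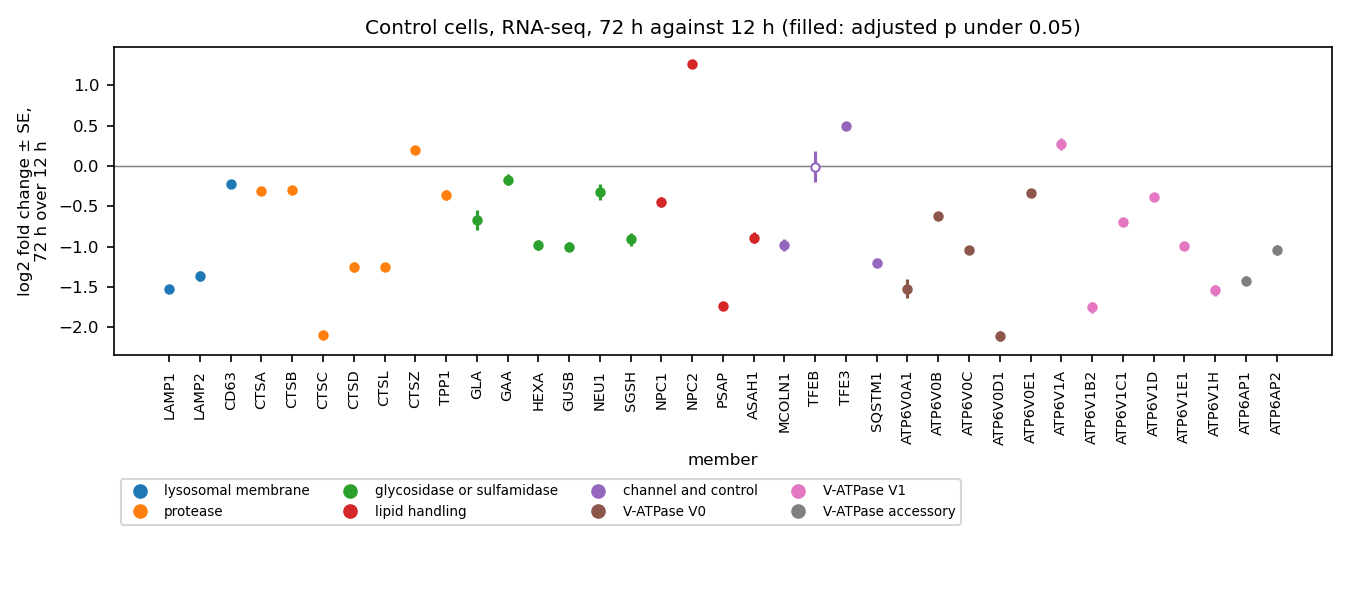
Log2 fold change of each member in control cells, 72 h over 12 h, in RNA-seq with its standard error, coloured by role. Of 37 members 32 were called lower, down to −2.11 for ATP6V0D1, and NPC2 stands highest at 1.26.

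Promoters are shown because the CLEAR element is the known site of TFEB and TFE3, both members of the list. RefSeq promoter windows (GRCh38.p14, 250 bases before to 50 after the start) matched 26 of the 37 members and were searched on both strands for GTCACGTGAC, for its inner TCACGTGA and for the E-box CACGTG, each of which contains the next. The longest word was in 2 members (7.7%) and in 0.35% of 35116 promoters, the middle one in 5 members (19.2%) and 0.98% of promoters, and the E-box in 9 members (34.6%) and 7.26% of promoters. A member counted if any of its windows held the word, while the other shares count single windows. The shares thus differ in unit and were not tested against each other. The windows below, with the word in capitals and 5′ to 3′ along the gene, lie at chr17:80101538-80101567 for GAA, chr19:7522598-7522627 for MCOLN1 and chr13:113297199-113297228 for LAMP1, all on the plus strand, and chr16:67481199-67481228 on the minus strand for ATP6V0D1. Their words are centred 28, 11, 25 and 56 bases before the start.
GAA: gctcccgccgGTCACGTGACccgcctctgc
MCOLN1: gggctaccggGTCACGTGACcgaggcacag
LAMP1: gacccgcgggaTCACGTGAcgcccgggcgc
ATP6V0D1: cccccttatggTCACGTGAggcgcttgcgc

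GAA, MCOLN1, LAMP1, ATP6V0D1 and CTSA, the 5 with the middle word, were lower at 72 h in control cells, at −0.17, −0.98, −1.53, −2.11 and −0.31. As 32 of all 37 members were lower there, this does not set the 5 apart. The GAA call was lost without control replicate 2 of 12 h (adjusted p = 0.101) or control replicate 1 of 72 h (0.104). Under miR-497-5p at 72 h LAMP1, ATP6V0D1 and CTSA were lower, and GAA and MCOLN1 did not pass. A word match is a description of the letters and not of a bound factor.

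The rest of the pathway was read from 5 further lists. Of 46 other hydrolases and membrane proteins, 15 were higher and 20 lower with miR-497-5p at 72 h in RNA-seq (median −0.16). Over all genes tested, 27.9% were higher and 29.6% lower. LIPA, the acid lipase that frees cholesterol from its esters, rose most by adjusted p (1.34 ± 0.05, adjusted p = 3.54e-28), with the iduronate sulfatase IDS (0.88 ± 0.04, adjusted p = 2.42e-22) and TMEM192 (0.91 ± 0.07, adjusted p = 3.15e-16), while acid sphingomyelinase SMPD1 fell (−1.02 ± 0.07, adjusted p = 8.8e-17). SMPD1 was already lower at 12 h (−0.31 ± 0.06, adjusted p = 8.86e-05). On the beads at 72 h 4 were higher, where 10.2% of genes were, and 7 lower, where 12.6% were, led by TMEM192 (1.29 ± 0.19) and IDS (1.06 ± 0.17). At 12 h 0 passed on the beads, where 0.326% of genes were higher and 0.269% lower.

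Of 20 other V-ATPase genes tested (22 listed), 6 were higher and 7 lower at 72 h in RNA-seq, where 27.9% of all genes were higher and 29.6% lower. The assembly factors CCDC115 (−0.71 ± 0.07, adjusted p = 5.9e-12) and TMEM199 (−0.59 ± 0.09, adjusted p = 3.4e-07) fell, and were lower on the beads too (−0.97 ± 0.24 and −0.99 ± 0.27). DMXL1, a factor of pump reassembly, rose (0.75 ± 0.09, adjusted p = 2.64e-10), as did the V1 stalk subunit ATP6V1G1 (0.31 ± 0.04, adjusted p = 1.49e-09). On the beads at 12 h NCOA7 alone of these passed (1.41 ± 0.32, adjusted p = 0.0399), where 0.326% of genes were higher.

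Of 17 genes of mannose 6-phosphate sorting, which delivers hydrolases to lysosomes, 6 were higher and 9 lower at 72 h in RNA-seq (median −0.29). Over all genes, 27.9% were higher and 29.6% lower. The cation-dependent receptor M6PR fell (−1.13 ± 0.07, adjusted p = 2.31e-18) with the adaptor subunit AP1S1 (−0.85 ± 0.04, adjusted p = 5.48e-22), while the retromer subunit VPS35 (0.87 ± 0.05, adjusted p = 1.75e-20) and GNPTAB, which makes the tag (0.80 ± 0.05, adjusted p = 2e-17), rose. In control cells 14 of the 17 were lower at 72 h than at 12 h, where 38.4% of genes were, M6PR by most (−2.34 ± 0.06).

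Of 38 autophagy genes tested, 14 were higher and 15 lower at 72 h in RNA-seq, where 27.9% of all genes were higher and 29.6% lower. ATG9A (−1.38 ± 0.06, adjusted p = 2.37e-24), ATG101 (−1.21 ± 0.07, adjusted p = 6.23e-20) and WIPI2 (−0.86 ± 0.04, adjusted p = 1.45e-21) fell, and RB1CC1, the scaffold of the initiating kinase complex, rose (0.91 ± 0.04, adjusted p = 4.44e-23). ATG9A and WIPI2 were already lower at 12 h (−0.31 ± 0.05 and −0.25 ± 0.04). On the beads at 72 h ATG9A (−0.85 ± 0.14) and ATG101 (−0.91 ± 0.18) were lower and WIPI1 higher (1.6 ± 0.33).

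Of 29 genes of mTORC1 and TFEB control tested, 8 were higher and 15 lower at 72 h in RNA-seq (median −0.20). Over all genes, 27.9% were higher and 29.6% lower. PPP3CA, a catalytic subunit of the phosphatase that releases TFEB, rose (0.85 ± 0.05, adjusted p = 6.57e-19), and the Ragulator subunits LAMTOR4 (−0.95 ± 0.06, adjusted p = 1.42e-17) and LAMTOR1 (−0.33 ± 0.03, adjusted p = 1.1e-11) and the folliculin gene FLCN (−0.64 ± 0.06, adjusted p = 7.88e-14) fell. On the beads at 72 h 4 were higher, where 10.2% of genes were, and 8 lower, where 12.6% were. Among the higher were FNIP2, the partner of folliculin (1.50 ± 0.22, adjusted p = 9.48e-06), and MITF, a relative of TFEB (1.48 ± 0.32, adjusted p = 0.00129).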

How the data were processed

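Per the submitters' processing notes, the tools were Trimmomatic 0.36, STAR 2.5.2b and featureCounts of Subread 1.5.2, with the GRCh38 build. The deposited files hold whole-number counts per gene, with gene lengths and no normalized values. The strand setting of the counting and the treatment of reads with several placements are not stated, so values of overlapping genes and of genes with near-identical pseudogenes are uncertain.

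For each assay 1 model over its 12 libraries was fitted in edgeR 4.0.16 (R 4.3.3) by its quasi-likelihood test with robust dispersions, after TMM scaling and its default removal of genes with few reads. Benjamini-Hochberg adjustment covered every gene tested, at a threshold of 0.05. Assays were compared in 1 model per time over its 12 libraries. Log2 fold changes are miR-497-5p over control, or 72 h over 12 h in control cells, with standard errors of the fit. DESeq2 1.42.0 served as an alternative. The fitting code was tested on simulated data.

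The labels give 8 groups of 3 libraries and leave unsaid whether these came from separate cultures, so the p-values describe only how much these libraries vary, possibly for technical reasons. Replicates of a group differed by more than counting error. A symbol was found for 56410 of the 57500 identifiers (98.1%). RPKM was computed from the deposited counts and lengths.

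The members and the further lists were chosen with earlier results of these data known. All 37 members may be named. Library values are given for up to 5 members per direction and comparison of mimics with the smallest adjusted p among those called, and always for LAMP1, CTSD, TFEB, TFE3, MCOLN1 and SQSTM1. From each further list up to 4 called genes per comparison are named by the smallest adjusted p. Alternatives were DESeq2, library totals, no filter, a replicate block, the compared libraries alone, each library left out, and an offset for GC content added after seeing the data.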

Additional observations from a re-analysis of the deposited data

Results flagged for a closer look

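The mimic effect (miR-497-5p over control) differed between 72 h and 12 h by the interaction test for 32 results, 25 in RNA-seq and 7 in the pull-down. The values are effects at 72 h minus those at 12 h on the log2 scale, at an adjusted p under 0.05 by edgeR's quasi-likelihood test.

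In RNA-seq the membrane proteins gave −0.33 for LAMP1, 0.45 for LAMP2 and −0.52 for CD63. The proteases gave −0.44 for CTSA, 0.27 for CTSC and 0.61 for TPP1, and the glycosidases 0.46 for HEXA and −0.38 for GUSB. Of the lipid-handling genes, NPC1 gave 0.41, NPC2 0.27, PSAP −0.44 and ASAH1 0.76, and the factor TFE3 gave −0.38.

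Of the V0 subunits ATP6V0A1 gave 0.52, ATP6V0B −0.40, ATP6V0C −0.98, ATP6V0D1 −0.57 and ATP6V0E1 −0.34. Of the V1 subunits ATP6V1A gave 1.22, ATP6V1C1 0.46, ATP6V1D −0.27, ATP6V1E1 0.16 and ATP6V1H 0.26, and the accessory subunits gave −0.53 for ATP6AP1 and 0.51 for ATP6AP2. The calls of ATP6V1E1 and ATP6V1H were the weakest, with adjusted p of 0.049 and 0.033, and both were lost under scaling by library totals (0.216 and 0.11) and under the removal of several single libraries.

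In the pull-down the values were 0.42 for CTSB, −0.79 for CTSL, 0.60 for NPC2, −0.76 for PSAP, 0.66 for SQSTM1, −1.25 for ATP6V0C and 0.56 for ATP6V1C1.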

How the results depend on the processing

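For the calls per member, the replicate block changed 1 result, CTSD in the RNA-seq difference between times (−0.19, adjusted p = 0.0423, newly called), and left the member count of every comparison within 1.5 times (5 higher at 12 h in RNA-seq with the block). Deviations of libraries with the same number correlated at −0.029 to 0.174 between mimics, at −0.015 to 0.048 between times and at −0.139 to 0.072 between assays. With 3 libraries per group, such low values cannot tell whether libraries of the same number shared a culture, and the labels do not say.

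In RNA-seq at 12 h the members higher were 5 and became 2 by library totals, 2 without the filter, 3 with the compared libraries alone and 9 with the GC offset, which left 0 lower. With the GC offset 6 members were lower at 72 h in RNA-seq, 7 were downward in the RNA-seq difference between times, and 8 upward in the pull-down one. By library totals the assay comparison gave 1 positive member at 12 h, and 10 positive and 1 negative at 72 h, and the control-cell comparison gave 2 higher. DESeq2 gave 5 negative members in the assay comparison at 12 h, where it called 974 of 17078 genes, 40.2% of them positive.

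Changes of sign are given where either fit made a call. With the GC offset at 72 h in RNA-seq the sign changed for CTSB (0.15), CTSD (0.34), GAA (0.41), TFE3 (0.07) and ATP6V0B (0.14). CTSD and GAA had no call without the offset, and TFE3 had none with it. In the difference between times the sign changed for CTSB (0.14), CTSD (0.31), CTSZ (0.33), GAA (0.44), SGSH (0.41), MCOLN1 (0.44) and TFE3 (0.02). Of these TFE3 alone was called without the offset, and it was not called with it. Library totals ended the calls of CTSZ (−0.04, adjusted p = 0.29) and SQSTM1 (0.00) at 72 h and of CTSZ in control cells (−0.05, adjusted p = 0.135). The cause was not tested.

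Leaving out 1 library at a time gave 2 to 9 higher and 0 to 1 lower in RNA-seq at 12 h, 13 to 15 higher and 12 to 13 lower at 72 h, 0 and 0 in the pull-down at 12 h, 3 to 6 higher and 4 to 5 lower at 72 h, 10 to 13 and 12 to 14 in the RNA-seq difference between times, 2 to 4 and 2 to 4 in the pull-down one, 0 to 1 and 0 in the assay comparison at 12 h, 5 to 7 and 2 to 4 at 72 h, and 4 and 31 to 32 in control cells. Of the single-member results in these fits 2791 kept their side of the threshold, 68 lost a call and 27 gained one. The GC offset was not run for the assay comparison. Pull-down calls rest on few reads for low members, 19 to 109 per library for ATP6V0C at 72 h.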
